A study of Rattus norvegicus with 8 samples.

Results

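The innate sensing of viral RNA and the interferon response were followed here through 9 genes in primary rat nucleus pulposus (NP) cells, which fill the centre of the intervertebral disc. The genes were chosen by symbol: the RNA sensors Ddx58 and Ifih1, the transcription factors Irf3, Irf7, Irf1, Irf9 and Stat2, and the effectors Isg15 and Ifit3. All 9 had 1 row each among the 13612 rows of the authors' gene table, and 8 of the 9 passed the count filter used for testing. NP cells of adult Sprague Dawley rats were grown in DMEM with 10% serum, and RNA-seq was performed on 4 Sirt6-Ctrl libraries (S1 to S4) and 4 Sirt6-KD libraries (S5 to S8). The cells are said to come from 4 rats, with controls described as respective, but the labels tie no library to a rat. The groups were therefore compared unpaired, and whether each knockdown culture shares a rat with a control is not known here. The labels give the groups as SIRT6Ctrl/ShCtrl and SIRT6KD/ShSirt6. Sirt6-KD cells received a mixture of lentiviral clones with short hairpin RNAs against Sirt6, a NAD-dependent histone deacetylase, and Sirt6-Ctrl cells a control hairpin virus. Lentivirus, polybrene and puromycin selection were shared by both groups, and no cells without virus are among the samples, so the levels below are those of transduced cells. The study's methods give hypoxic culture for the cells used for protein, and name no oxygen tension for those used for RNA.

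As background, RIG-I (encoded by Ddx58) and MDA5 (encoded by Ifih1) are cytosolic helicases that bind viral or misplaced double-stranded RNA. They signal through the adaptor MAVS and the kinase TBK1 to IRF3 and IRF7, which switch on the genes of type I interferons. Secreted interferon binds IFNAR1 and IFNAR2, the kinases JAK1 and TYK2 are activated, and phosphorylated STAT2 joins IRF9 in the complex ISGF3. ISGF3 binds the interferon-stimulated response element (ISRE) in the promoters of genes such as Isg15 and Ifit3, and of Ddx58, Ifih1 and Irf7 themselves, so that the sensors feed their own loop. SIRT6 loss is known from other tissues to release transcription of repetitive elements, which can feed nucleic acid sensing.

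The promoters of the members were read for the elements of this loop. Promoters were looked up by symbol, Ddx58 as Ddx58 or Rigi and not as Rig1, so its window may have been missed. RefSeq promoters (build GRCr8, 250 bases before to 50 after the gene start) were found for 7 of the 9 genes, all but Isg15 and Ddx58. They were searched on both strands for the ISRE core (GAAA, any 2 bases, then GAAA) and for the interferon-γ element GAS, TTCNNNGAA. The ISRE core was in 3 of the 7 windows (Irf7, Ifit3 and Ifih1), against 3.92% of 33469 promoters of the same length, and GAS in 2 (Irf1 and Irf9), against 8.87%. No member's window held both, and Stat2 and Irf3 held neither. A match describes these letters and is not a measured binding site. The windows of the genes with an ISRE core, and that of Irf1 with GAS, are shown on the gene's strand, 5′ to 3′, with the match in capitals, which reads as its reverse complement in Ifit3 and Irf7. The ISRE core began at position -44 from the gene start in Ifit3, at -69 in Irf7 and at -59 in Ifih1, and the GAS of Irf1 at -142.
Ifit3 promoter, chr1:241527076-241527375, plus strand: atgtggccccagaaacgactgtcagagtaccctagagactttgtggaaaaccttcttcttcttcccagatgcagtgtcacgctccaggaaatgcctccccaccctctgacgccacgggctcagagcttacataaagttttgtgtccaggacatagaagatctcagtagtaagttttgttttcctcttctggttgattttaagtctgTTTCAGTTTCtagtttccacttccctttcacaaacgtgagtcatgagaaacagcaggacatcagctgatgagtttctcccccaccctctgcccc
Irf7 promoter, chr1:205799974-205800273, minus strand: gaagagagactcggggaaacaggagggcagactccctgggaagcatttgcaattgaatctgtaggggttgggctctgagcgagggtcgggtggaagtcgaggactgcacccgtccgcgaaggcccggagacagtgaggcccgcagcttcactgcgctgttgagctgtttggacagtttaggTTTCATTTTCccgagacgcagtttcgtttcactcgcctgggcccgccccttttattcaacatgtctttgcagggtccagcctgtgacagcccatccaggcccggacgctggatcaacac
Ifih1 promoter, chr3:67683919-67684218, minus strand: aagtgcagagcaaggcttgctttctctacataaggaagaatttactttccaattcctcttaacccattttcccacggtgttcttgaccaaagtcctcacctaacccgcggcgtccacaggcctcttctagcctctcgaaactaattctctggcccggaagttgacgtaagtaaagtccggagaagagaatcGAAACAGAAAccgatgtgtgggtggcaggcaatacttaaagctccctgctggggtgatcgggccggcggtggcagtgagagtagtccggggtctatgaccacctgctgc
Irf1 promoter, chr10:38417685-38417984, plus strand: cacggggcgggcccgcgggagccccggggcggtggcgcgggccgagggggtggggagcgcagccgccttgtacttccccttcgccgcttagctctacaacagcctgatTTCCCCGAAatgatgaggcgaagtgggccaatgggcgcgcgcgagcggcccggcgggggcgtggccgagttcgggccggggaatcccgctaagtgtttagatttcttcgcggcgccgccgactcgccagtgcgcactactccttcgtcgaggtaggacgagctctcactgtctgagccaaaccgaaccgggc

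Total counts ranged from 31994838 to 40124813 per library. Synthetic ERCC spike-ins took 9.80% of the counts in S2 and 6.27% in S1, against 2.15% to 3.08% in the other libraries. Sirt6 stood at 56.4, 54.3, 52.5 and 47.6 CPM (counts scaled to library size with TMM factors) in S1 to S4 and at 21.8, 21.0, 19.2 and 20.6 CPM in S5 to S8, so the knockdown held in every library labelled ShSirt6. Of 14 NP markers, 5 had no named row (Krt18, Krt19, Col2a1, Tbxt and Shh). Of the 9 tested, 6 had negative and 3 positive log2 fold changes with a median of -0.43. Krt8 and Car3 were called lower and Ncam1 was called higher. The levels of the 9 summed to 291 to 366 CPM in Sirt6-Ctrl, against 397 to 461 CPM in Sirt6-KD. In this sum Ncam1 (mean 85.0 and 208 CPM), Car12 (28.4 and 82.1 CPM) and Sox9 (7.98 and 11.1 CPM) had the larger means after knockdown. Car12 stood at 74.6 CPM in S3, against 8.87 to 17.6 CPM in S1, S2 and S4, and was not called (adjusted p = 0.0776, edgeR). Leukocytes express many of the members strongly, and of 11 leukocyte markers 8 had no named row, Ptprc, Itgam and Cd3e among them. The other 3 (Cd14, Cd68 and Csf1r) summed to 11.9 to 29.7 CPM in Sirt6-Ctrl, against 15.0 to 23.8 CPM in Sirt6-KD, and none of them was called. Of 7 endothelial markers only Tek had a named row, with at most 0.592 CPM. In bulk RNA, fewer cells of a type and less RNA per cell cannot be told apart.

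None of the 8 members tested was called different between Sirt6-KD and Sirt6-Ctrl by edgeR's quasi-likelihood test (adjusted p below 0.05 and fold change above 1.5), while 18.7% of the 13250 genes tested were. DESeq2 (all 9 genes) and limma-voom (8 genes) also called none. At an unadjusted p below 0.05 each of the 3 tools held 1 member, Irf9 in edgeR, against 36.6% of all genes in edgeR. No member had groups that did not overlap, compared with 30.4% of all genes. The log2 fold changes of the 8 members had a median of -0.21, and those of all genes -0.016, with 6 members below 0 and 2 above. Their spread limits what could be seen: the standard error of the log2 fold change ran from 0.19 (Stat2) to 0.997 (Isg15), above the all-gene median of 0.27 in 5 of 8. Levels are given as mean ± SD over the libraries of a group (n = 4), and changes as log2 of Sirt6-KD over Sirt6-Ctrl with the standard error (SE) of the fit. Only for Stat2, Irf3 and Ifih1 did the 95% interval lie within a 2-fold change in either direction.

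**Figure D1:**
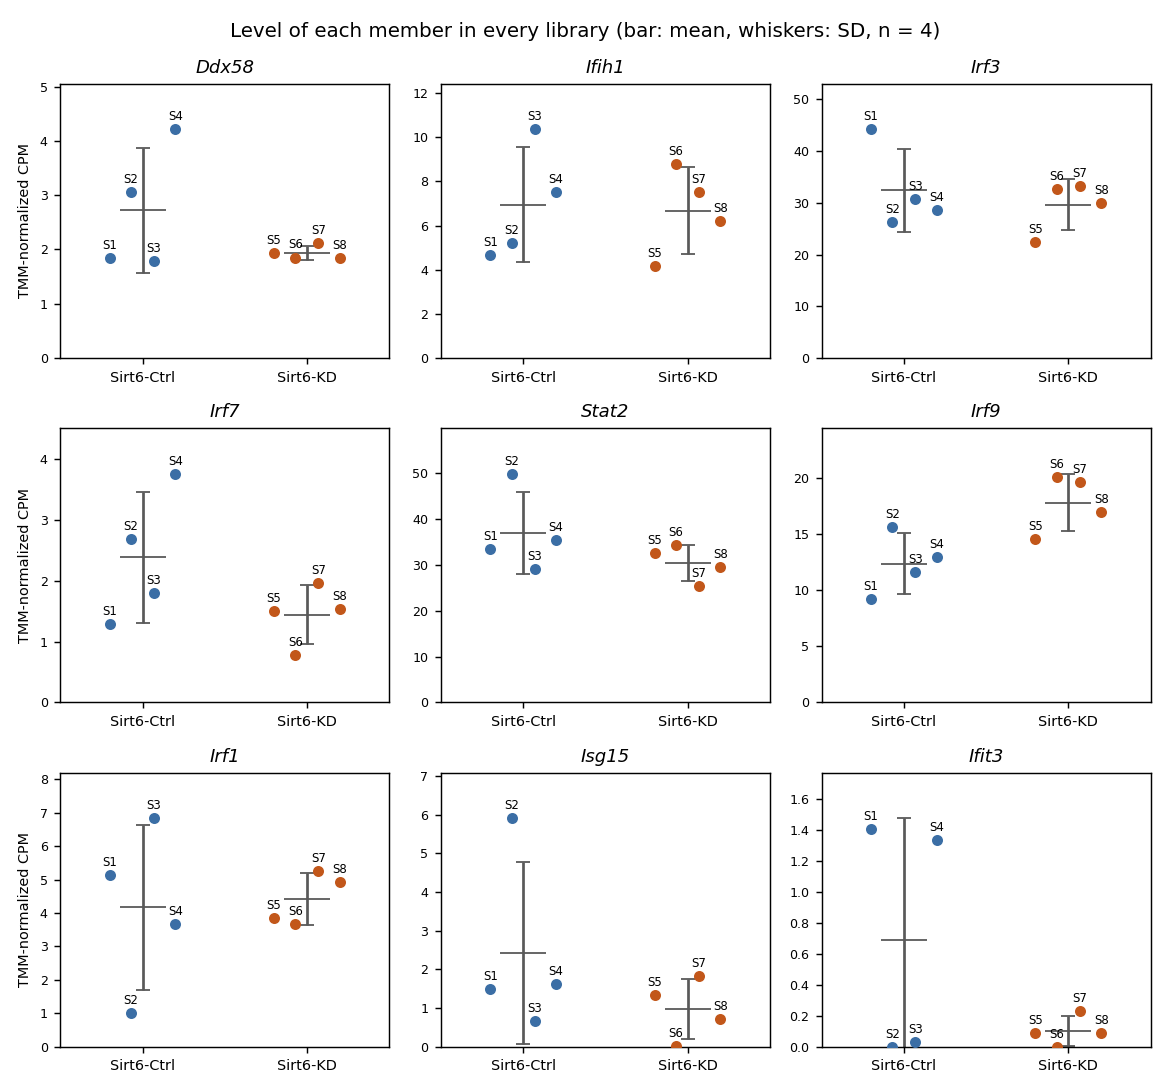
Level of each of the 9 genes (vertical axis, TMM-normalized CPM from 0) in the 4 Sirt6-Ctrl (blue) and 4 Sirt6-KD (orange) libraries, with the mean as a bar and the SD as whiskers. The groups overlap in every panel; Irf9 comes closest to separating, with S2 (15.7 CPM) above S5 (14.6 CPM), and Ifit3 is held up in Sirt6-Ctrl by S1 and S4.

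Of the RNA sensors, Ddx58, the RIG-I helicase (ENSRNOG00000006384), had 64, 99, 61 and 174 reads in S1 to S4 and 67, 62, 81 and 62 in S5 to S8. S4 and S2 were the highest libraries, S3 the lowest, and S1 lay among the Sirt6-KD libraries, so the groups overlapped. Its level was 2.73 ± 1.15 CPM in controls and 1.93 ± 0.127 CPM after knockdown, a log2 change of -0.50 (95% interval -1.56 to 0.57, adjusted p = 0.497, edgeR). Its spread in Sirt6-KD was only 6.55% of the mean (coefficient of variation, CV), against 42.3% in Sirt6-Ctrl. Ifih1, the MDA5 helicase (ENSRNOG00000006227), had 162, 168, 352 and 311 reads in S1 to S4 and 144, 294, 289 and 210 in S5 to S8. Each group held libraries at the low and at the high end. Its level was 6.94 ± 2.60 CPM in controls and 6.67 ± 1.97 CPM after knockdown, a log2 change of -0.056 (95% interval -0.85 to 0.74, adjusted p = 0.932, edgeR). In RefSeq a non-coding gene (LOC120102855) overlaps Ddx58, and no strand setting was given for the counting.

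Irf3, the factor that TBK1 phosphorylates first and that is made in most cells at rest, was not called. It (ENSRNOG00000043388) had 1539, 847, 1045 and 1177 reads in S1 to S4 and 777, 1096, 1272 and 1013 in S5 to S8. S1 was the highest library and S5 the lowest, with the other 6 between 26.2 and 33.2 CPM. The group levels were 32.4 ± 8.08 and 29.6 ± 4.94 CPM, a log2 change of -0.13 (95% interval -0.59 to 0.32, adjusted p = 0.687, edgeR). Bcl2l12 overlaps Irf3 in the RefSeq annotation, so reads of the overlap cannot be told apart without a strand setting. Irf7, the interferon-induced factor that widens the response, was far less abundant in reads (ENSRNOG00000017414), with 45, 87, 61 and 155 in S1 to S4 and 52, 26, 75 and 52 in S5 to S8. S4 was again the highest and S6 the lowest. The levels were 2.38 ± 1.08 and 1.44 ± 0.490 CPM, a log2 change of -0.72 (95% interval -1.98 to 0.53, adjusted p = 0.390, edgeR).

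The partners within ISGF3 had fold changes of opposite sign, neither of them called. Irf9, its DNA-binding subunit (ENSRNOG00000019478), had 320, 507, 396 and 537 reads in S1 to S4 and 504, 673, 755 and 575 in S5 to S8. All Sirt6-KD libraries but S5 lay above all Sirt6-Ctrl libraries. Its level was 12.4 ± 2.71 CPM in controls and 17.8 ± 2.57 CPM after knockdown, a 1.44-fold difference (95% interval 1.02 to 2.03). The unadjusted p was 0.0392 and the adjusted p 0.116 by edgeR. Without S2, the Sirt6-Ctrl library with the largest spike-in share, Irf9 was called higher (log2 fold change 0.67, adjusted p = 0.0415, edgeR). With single libraries left out, the log2 fold change of Irf9 lay between 0.44 and 0.67. Over all alternatives it lay between 0.44 and 1.52 and its adjusted p between 0.0415 and 0.274. These include spike-in scaling, which moved the median of all genes to 0.94. Stat2 (ENSRNOG00000031081), which brings the activation domain to ISGF3, had 1165, 1612, 989 and 1458 reads in S1 to S4 and 1129, 1147, 971 and 1001 in S5 to S8. S2 stood highest and S7 lowest. Its levels were 36.9 ± 8.99 and 30.5 ± 3.94 CPM, a log2 change of -0.28 (95% interval -0.71 to 0.15, adjusted p = 0.328, edgeR).

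The reads of Irf9 as a share of those of Stat2 need no scaling between libraries. They were 27.5%, 31.5%, 40.0% and 36.8% in S1 to S4 and 44.6%, 58.7%, 77.8% and 57.4% in S5 to S8. The groups did not overlap (mean log2 ratio 0.80 higher after knockdown; p = 0.0286 by a two-sided exact permutation test, the lowest that 4 against 4 allow). This was 1 of 28 pairs among the 8 members, and no pair passed after adjustment (Benjamini-Hochberg, adjusted p = 0.267). The ratio did not overlap in 3 of the 28 pairs, all of them with Irf9 (over Stat2, Irf7 and Ddx58), which is 10.7% against 25.7% of all 87774625 pairs of genes tested.

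Irf1, a factor induced by interferon-γ through its GAS element, also acts outside the interferon loop in inflammation. It (ENSRNOG00000008144) had 179, 33, 232 and 152 reads in S1 to S4 and 133, 123, 202 and 166 in S5 to S8. S2 was the lowest library at 1.02 CPM and S3 the highest at 6.83 CPM, so that Sirt6-Ctrl spanned the whole range of Sirt6-KD. The levels were 4.17 ± 2.46 and 4.43 ± 0.783 CPM, a log2 change of 0.086 (95% interval -1.06 to 1.23, adjusted p = 0.927, edgeR).

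The effectors had the widest spread relative to their means. Isg15, a ubiquitin-like protein that is joined to other proteins (ENSRNOG00000021802), had 52, 191, 23 and 67 reads in S1 to S4 and 46, 1, 70 and 24 in S5 to S8. S2 held more than any other library, S6 a single read, and the remaining 6 lay between 0.677 and 1.82 CPM. Its levels were 2.43 ± 2.36 and 0.974 ± 0.777 CPM, a log2 change of -1.31 with a 95% interval from -3.52 to 0.90 (adjusted p = 0.375, edgeR). It was -0.36 without S2 and -0.23 without S1 and S2. Ifit3, a member of a family that binds viral RNA (ENSRNOG00000022839), had 49, 0, 1 and 55 reads in S1 to S4 and 3, 0, 9 and 3 in S5 to S8. S1 and S4 were the highest at 1.41 and 1.33 CPM, S7 followed at 0.235 CPM, and the gene was too low for the count filter. The 0 reads in S2 and S6 allow up to 0.0928 and 0.0896 CPM (3 counts, counting error only). Where it was fitted with a looser filter on the row sum, its log2 fold change was -2.67 (SE 1.60, adjusted p = 0.260, edgeR). Ifit genes resemble each other in sequence, and how reads shared by them were counted was not given in the sources used here.

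**Figure D2:**
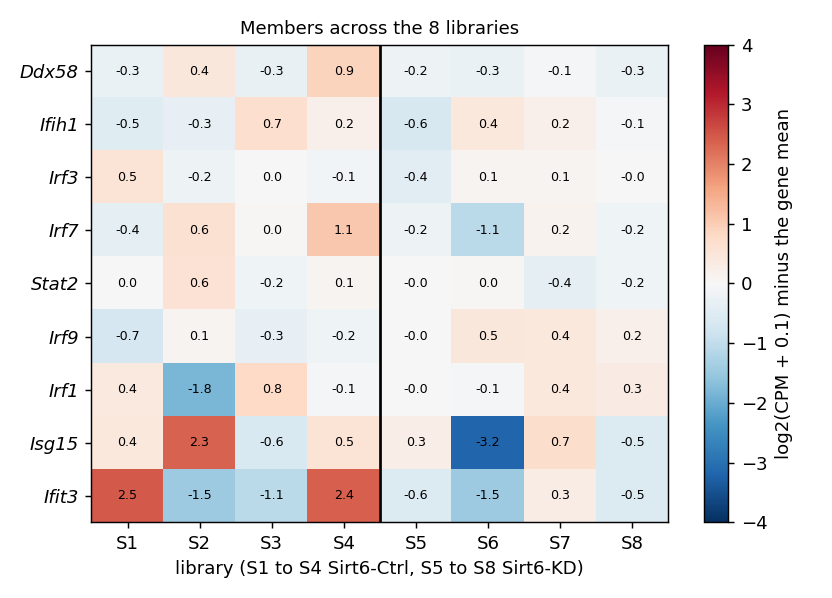
Each gene (rows) in each library (columns) as log2(CPM + 0.1) minus the gene's mean over the 8 libraries; red is above and blue below the mean, and the line divides Sirt6-Ctrl from Sirt6-KD. S2 is the top library for Isg15 (2.35) and the bottom for Irf1 (-1.83), S1 and S4 are high for Ifit3 (2.45 and 2.38), and no column is high or low for all 9 genes.

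Across libraries the members did not rise and fall as a block. In S2, Isg15 and Stat2 were at their highest while Irf1 was at its lowest and Ifit3 at 0 reads. S4 had the highest Ddx58 and Irf7. In S6, Isg15, Irf7 and Irf1 were the lowest of Sirt6-KD while Stat2, Irf9 and Ifih1 were its highest. The CV within Sirt6-Ctrl ran from 21.8% (Irf9) to 97.2% (Isg15) over the 8 tested members, with 5 above the all-gene median of 32.0%. In Sirt6-KD it ran from 6.55% (Ddx58) to 79.8% (Isg15), with 5 above the all-gene median of 14.6%. The genes outside the lists with the highest median correlation with the members, after removal of the group means, were Ostm1, Thap12, Hivep3, C2cd3 and Gen1. They were picked as the top of all tested genes, so a high median r follows from the choice. The lowest r of each with a single member was -0.86 to -0.78, so none followed the members as a set. Ostm1 had a median Pearson r of 0.64 with the 8 members over the same 8 libraries, and single members ranged from -0.84 to 0.76.

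Around the members, 6 lists of pathway genes (123 symbols) were read from the same test. A named row was found for 81 of them, 80 were tested, and 14 were called, 8 higher and 6 lower (17.5%; of all genes 18.7% were called, 8.02% higher and 10.7% lower). None of the 12 interferon genes in the list of ligands, Ifnb1 and Ifng among them, had a named row in the table, whose rows each hold more than 80 reads over the 8 libraries.

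In the receptor and JAK-STAT list, 2 of 11 genes were called higher and none lower. The kinase Jak1 rose from 213 ± 43.7 to 353 ± 15.4 CPM, a log2 change of 0.73 (SE 0.15, adjusted p = 0.0113, edgeR). Ifnlr1, the receptor chain for interferon-λ, rose from 9.73 ± 3.31 to 20.6 ± 5.35 CPM, a log2 change of 1.08 (SE 0.31, adjusted p = 0.0304, edgeR). Its call was lost without S1, S5, S6 or S7, with log2 fold changes of 0.91 to 1.12 and adjusted p-values of 0.0664 to 0.105 (edgeR). The chains of the type I receptor had opposite signs. Ifnar1 had 107 ± 6.76 CPM in controls and 79.0 ± 6.05 CPM after knockdown, a log2 change of -0.44 whose adjusted p of 0.0231 (edgeR) passed but whose size stayed under the 1.5-fold limit. Spike-in scaling turned it to 0.51, but moved the median of all genes to 0.94, against which spike-in values here and below are to be read. No pathway gene was called in either direction with spike-in scaling, where only 20 of the 13250 genes tested were called higher and 4 lower. Ifnar2 had 18.5 ± 3.68 and 28.2 ± 4.72 CPM, with a log2 change of 0.61 and an adjusted p of 0.0531 (edgeR), and was called without S3 (0.72, adjusted p = 0.0251). Tyk2, the kinase bound to Ifnar1, was not called, with a log2 change of -0.21 (adjusted p = 0.401, edgeR), which was 0.81 with spike-in scaling.

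**Figure D3:**
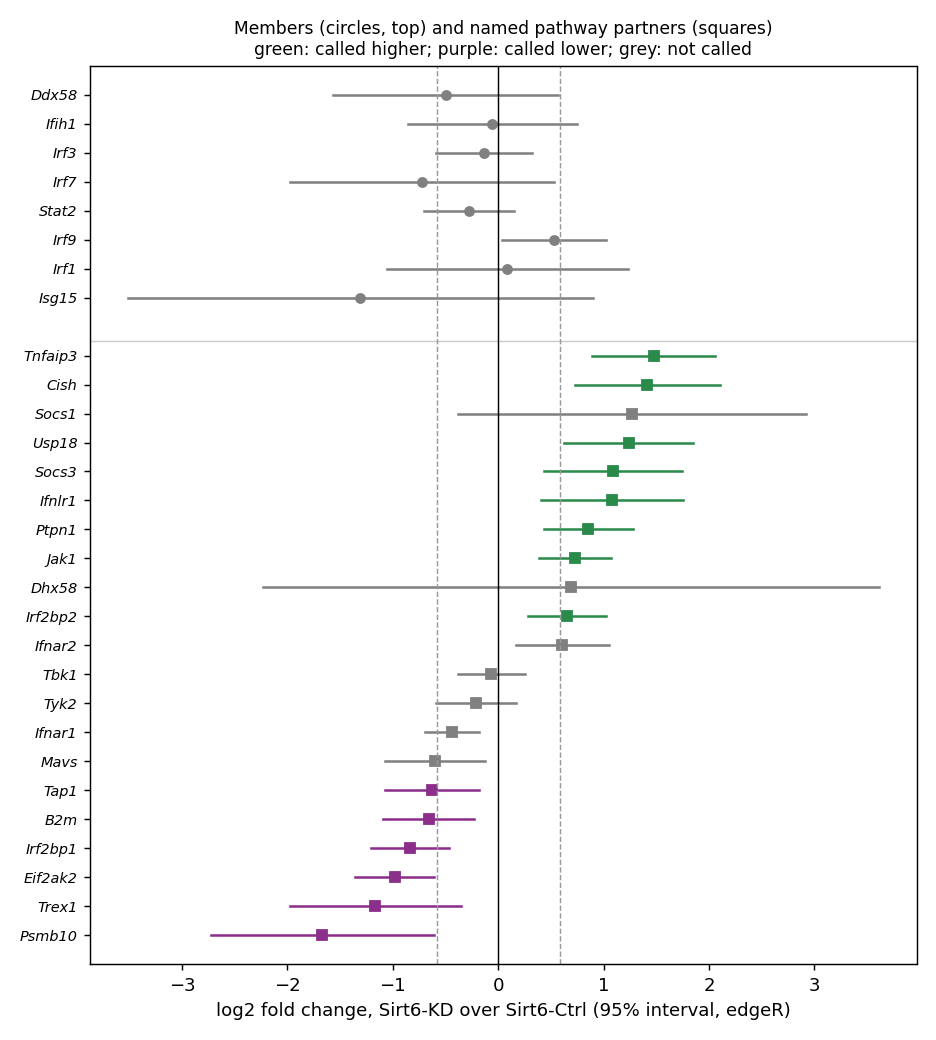
Change from Sirt6-Ctrl to Sirt6-KD (horizontal axis, log2 fold change, point) with its 95% interval (line) for the 8 tested members (circles) and for 21 pathway genes named by rule (squares); dashed lines mark a 1.5-fold change. All 8 members are grey, not called, and among them the interval of Irf9 alone leaves out 0; Tnfaip3 at 1.47 and Psmb10 at -1.67 are the ends of the called genes.

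Among the other interferon regulatory factors and their co-factors, 1 of 6 was called higher and 1 lower. Irf2bp2 rose from 147 ± 29.2 to 232 ± 31.5 CPM, a log2 change of 0.65 (adjusted p = 0.0214, edgeR). This call was lost, on size or on p, without S1, S4, S5, S6 or S7 (log2 fold change 0.55 to 0.68, adjusted p = 0.0383 to 0.0723, edgeR). Irf2bp1, a co-repressor of IRF2 like its relative, fell from 49.0 ± 10.2 to 27.5 ± 1.17 CPM, a log2 change of -0.83 (adjusted p = 0.00897, edgeR), which turned to 0.21 with spike-in scaling, 0.73 below the median of all genes there.

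Of 16 sensors, adaptors and kinases tested, none was called higher and 2 were called lower. Eif2ak2, the kinase PKR that halts translation when it binds double-stranded RNA, fell from 38.1 ± 3.67 to 19.2 ± 3.07 CPM, a log2 change of -0.98 (SE 0.17, adjusted p = 0.00544, edgeR). Its values were 38.6, 37.1, 42.7 and 33.9 CPM in S1 to S4 and 22.7, 15.3, 19.0 and 19.9 CPM in S5 to S8, with no overlap (15.6% of all genes had all Sirt6-KD libraries below all Sirt6-Ctrl libraries). The call held whichever of the 8 libraries was left out, and with spike-in scaling the value was -0.029, 0.97 below the median of all genes. Trex1, the exonuclease that clears cytosolic DNA, fell from 18.7 ± 9.95 to 8.31 ± 2.31 CPM, a log2 change of -1.17 (adjusted p = 0.0444, edgeR), and was 0.11 with spike-in scaling. Its call was lost without S1, S2, S5, S6, S7 or S8 (log2 fold change -1.37 to -0.74, adjusted p = 0.0622 to 0.120, edgeR). The adaptor Mavs, on which both sensors depend, had a log2 change of -0.60 (adjusted p = 0.0689, edgeR) and was called without S3 (-0.74, adjusted p = 0.0183), with 0.51 under spike-in scaling. Tbk1 was at 41.9 ± 5.01 and 40.1 ± 3.06 CPM, a log2 change of -0.066 (95% interval -0.38 to 0.25, adjusted p = 0.777, edgeR). Dhx58, the helicase LGP2 that works beside both sensors, had 0 to 17 reads in Sirt6-Ctrl and 0 to 29 in Sirt6-KD, too few to place it (95% interval -2.23 to 3.61).

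The list of interferon-stimulated genes held 53 symbols, of which 21 had no named row (Mx1, Mx2, Oas1a, Oas2, Oas3 and Ccl5 among them) and 1 (Sp100) was below the count filter. Of the 31 tested, 22 had negative and 9 positive log2 fold changes with a median of -0.25, and 1 was called higher and 3 lower. Without S1 and S2, 17 of the 31 were negative and the median was -0.12, and with single libraries left out it ran from -0.44 (without S7) to -0.16 (without S5). With spike-in scaling the median was 0.83, or -0.12 when set against the all-gene median. Usp18, the protease that strips ISG15 from proteins and damps the type I receptor, was the gene called higher. It stood at 6.35, 9.80, 13.6 and 8.48 CPM in S1 to S4 and at 19.7, 21.7, 30.7 and 18.1 CPM in S5 to S8, with no overlap (14.8% of all genes had all Sirt6-KD libraries above all Sirt6-Ctrl libraries). Its log2 fold change was 1.24 (SE 0.28, adjusted p = 0.0132, edgeR), and without S7 it was 1.05 (adjusted p = 0.0518). The genes called lower were Psmb10, B2m and Tap1. Psmb10, an immunoproteasome subunit, fell from 13.3 ± 7.91 to 4.18 ± 1.56 CPM, a log2 change of -1.67 (adjusted p = 0.0323, edgeR), and was -0.30 with spike-in scaling. The other immunoproteasome subunits of the list, Psmb8 and Psmb9, had log2 changes of 0.042 and 0.067. B2m, the light chain of MHC class I, fell from 389.7 ± 86.4 to 246 ± 49.96 CPM, a log2 change of -0.66 (adjusted p = 0.0361, edgeR), and was 0.32 with spike-in scaling. Tap1, a subunit of the peptide transporter, fell from 34.7 ± 9.83 to 22.4 ± 1.98 CPM, a log2 change of -0.63 (adjusted p = 0.0490, edgeR), and was 0.48 with spike-in scaling. Each of these 3 calls was lost when 1 of 6 libraries was left out: S1, S2, S5, S6, S7 or S8 for Psmb10 (log2 fold change -1.81 to -1.22) and Tap1 (-0.67 to -0.40), and S1, S2, S4, S5, S6 or S7 for B2m (-0.69 to -0.53). The adjusted p-values were then 0.0643 to 0.0874, 0.0718 to 0.133 and 0.0636 to 0.114 (edgeR).

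Of 16 restraints on interferon and cytokine signalling, 4 were called higher and none lower, against 8.02% and 10.7% of all genes. The list was chosen with earlier results of these data known. Log2 fold changes were positive in 11 and negative in 5, with a median of 0.45. The negative values included Socs2 (-1.80, adjusted p = 0.150, edgeR) and Otud5 (-0.53, adjusted p = 0.0163, edgeR, under the 1.5-fold limit). In these 2 of the 16 all Sirt6-KD libraries lay below all Sirt6-Ctrl libraries, as in 15.6% of all genes. In 6 of the 16 they all lay above, as in 14.8% of all genes. Tnfaip3, the ubiquitin-editing enzyme A20, rose from 9.25 ± 3.62 to 25.7 ± 1.56 CPM, a log2 change of 1.47 (adjusted p = 0.00619, edgeR). Cish, a suppressor of cytokine signalling, rose from 11.3 ± 5.82 to 30.2 ± 4.68 CPM, a log2 change of 1.41 (adjusted p = 0.0126, edgeR). Ptpn1, a phosphatase that acts on JAK2 and TYK2, rose from 58.1 ± 16.2 to 105 ± 6.63 CPM, a log2 change of 0.85 (adjusted p = 0.0133, edgeR). Socs3, a suppressor induced by STAT3, rose from 32.4 ± 14.6 to 69.0 ± 11.8 CPM, a log2 change of 1.09 (adjusted p = 0.0261, edgeR). The Socs3 call was lost without S1, S5, S6 or S7 (0.95 to 1.13, adjusted p = 0.0588 to 0.0802, edgeR), and the other 3 calls held whichever of the 8 libraries was left out. Socs1, the suppressor most closely tied to interferon, had 5 to 55 reads in Sirt6-Ctrl and 53 to 116 in Sirt6-KD and was not called (log2 fold change 1.27, 95% interval -0.38 to 2.92, adjusted p = 0.247, edgeR).

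**Figure D4:**
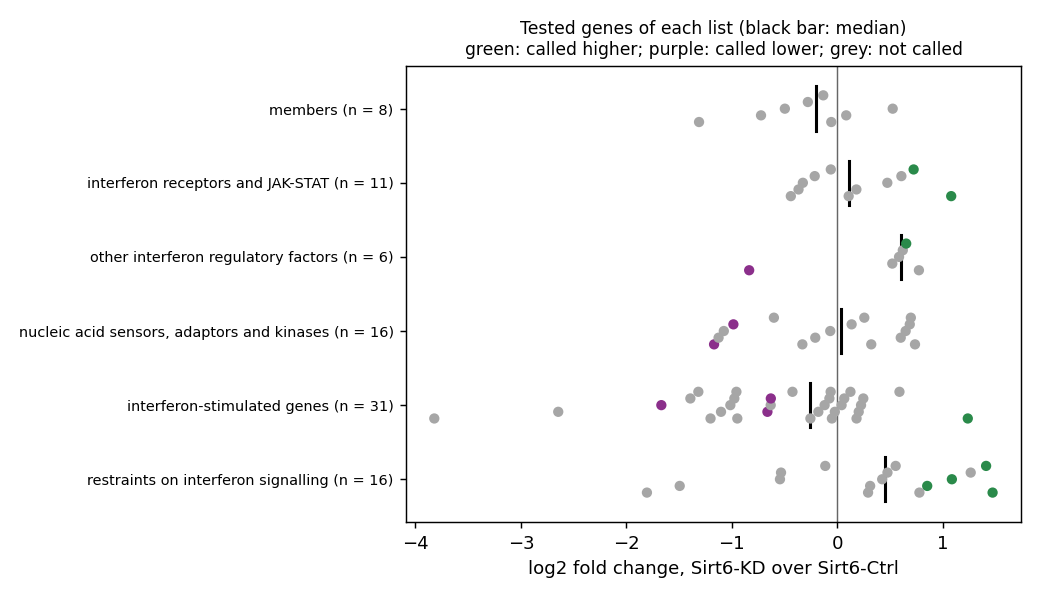
Change from Sirt6-Ctrl to Sirt6-KD (horizontal axis, log2 fold change) for every tested gene of the members and of 5 pathway lists (rows), with the median as a black bar; green and purple mark genes called higher and lower. The median is -0.21 for the members, -0.25 for interferon-stimulated genes and 0.45 for the restraints, and the vertical scatter within a row carries no value.

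The ISRE core shown in the promoters of Ifit3, Irf7 and Ifih1 was also looked up for the other list genes. Of the 88 tested members and list genes 71 had a RefSeq promoter, and 28 of these (39.4%) held the core, against 2.88% of all tested genes with a promoter. Usp18, the only gene of the interferon-stimulated list called higher, had no promoter at hand and was not counted on either side. Isg15, Ddx58 and Dhx58 were not counted either, as no promoter was found by the symbols searched. Of the 28, 23 had a negative log2 fold change in Sirt6-KD, with a median of -0.63, none called higher and 4 called lower. The 4 were Eif2ak2 (GAAAACGAAA at -16), Psmb10 (GAAAGTGAAA at -73 and GAAAGCGAAA at -17), Tap1 (GAAACCGAAA at -121) and B2m (GAAACTGAAA at -150). The calls of Psmb10, Tap1 and B2m were each lost when 1 of 6 libraries was left out, while that of Eif2ak2 held. Some of the 28 had few reads: Bst2 had 1 to 82 in Sirt6-Ctrl and 0 to 10 in Sirt6-KD. Gbp4 had 1 to 65 and 0 to 14, and Ifit1bl 15 to 138 and 0 to 47. Rsad2 had 395 reads in S2 and 20 to 72 in the other libraries. The weight of such genes in the median was not tested. Without S2 the median of the 28 was -0.43, with 22 negative. Of the 43 list genes without the core, 17 had a negative value, with a median of 0.18, 6 called higher and 2 lower. Most genes with the core came from the interferon-stimulated list (median -0.25). Most genes without it came from the other pathway lists, with list medians of 0.036 to 0.60. List and motif were therefore not separated. Over all 270 tested genes with the core the median was -0.049, 54.1% were negative, and 24 were called higher and 30 lower. Of the 9101 tested genes with a promoter but no core, 786 were called higher and 1075 lower. Of all genes tested 8.02% were called higher and 10.7% lower. The median of the 28 was -0.38 without S1 and S2. With spike-in scaling it turned to 0.40, or -0.55 when set against the all-gene median. No test was made of this split, which was drawn after the values were known.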

How the data were processed

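RNA from 4 Sirt6-Ctrl and 4 Sirt6-KD cultures was sequenced by Azenta. The submitters' processing notes name Trimmomatic 0.36, STAR 2.5.2b, featureCounts of Subread 1.5.2, DESeq2 and the build Rnor_6.0. A table of raw counts deposited by the authors, not normalized, holds 32975 rows, each for 1 Ensembl gene or ERCC spike-in. They also deposited a table of 13612 rows with a normalized signal per library, made by dividing the counts by 1 size factor per library, and with the log2 fold change and p-values of their own comparison. That table was used for gene names only, and its deposited log2 values and p-values were not used.

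Groups were taken from the genotype labels. Counts were filtered with filterByExpr, normalized by TMM and tested with edgeR 4.0.16 (quasi-likelihood, two-sided, Benjamini-Hochberg over 13313 rows, 63 of them spike-ins), and called when the adjusted p was under 0.05 with over 1.5-fold change. Standard errors are the log2 fold change over the square root of F. DESeq2 1.42.0 and limma-voom 3.58.1 (R 4.3.3) were alternatives. All fits were tested on simulated data with the same spread per gene in both groups. In the libraries the median CV was 32.0% in Sirt6-Ctrl and 14.6% in Sirt6-KD, a difference which the simulation did not copy. Depth was 31994838 to 40124813 counts, and 3 counts equal 0.0727 to 0.0928 CPM, which covers counting error only.

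The members and lists were chosen with earlier results of these data known. Named genes are the members, up to 4 called genes of each direction per list by smallest p, list genes at 3 or fewer counts in every library of 1 group only, 9 direct partners (1 not reported here), Sirt6, and the 5 genes of most similar pattern; Sp100, Psmb8, Psmb9, Socs2, Otud5, the markers and symbols without a row were named after their values were seen. Lists were described by counts and medians, without a set test. Ratios used log2 of counts plus 0.5. Overlapping genes were taken by name from RefSeq GRCr8.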

Additional observations from a re-analysis of the deposited data

Results flagged for a closer look

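Dixon's gap was computed in 62 groups of 4 libraries, for 31 genes, and passed its 95% critical value in 2 of them (about 3 by chance, or 1 in 20). Both concerned Cish, a suppressor of cytokine signalling. S3 was the highest Sirt6-Ctrl library at 19.96 CPM, with 9.62 CPM next, a gap of 0.835 of the range. S6 was the highest Sirt6-KD library at 37.2 CPM, with 28.1 CPM next, a gap of 0.960 of the range. None of the 9 members was among them.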

How the results depend on the processing

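No paired analysis was possible because neither labels nor count columns carry a rat number shared by the groups, although the series speaks of respective controls. The 8 tested members were called under no alternative except without S2, so the number called over single libraries left out was 0 to 1. Over all genes, 1063 were called higher and 1416 lower. With DESeq2 1606 were higher, at an adjusted p below 0.01 241 were higher and 485 lower, with spike-in scaling 20 and 4, and without S1 and S2 709 were lower. Leaving out single libraries gave 445 to 1699 higher (552 or fewer without S1, S5, S6 or S7, and 1699 without S3) and 700 to 1913 lower (791 or fewer without S1, S5, S6 or S7). Of the pathway genes 8 were called higher and 6 lower: 1 and 2 at an adjusted p below 0.01, 0 and 0 with spike-in scaling, 11 lower with DESeq2, 2 lower without S1 and S2, and without single libraries 5 to 10 higher (5 without S1, S5, S6 or S7) and 2 to 10 lower (2 or 3 without S1, S2, S5, S6, S7 or S8, and 10 without S3).

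Spike-in scaling moved the all-gene median from -0.016 to 0.94 and turned these values positive: Stat2 0.79, Irf3 0.86, Irf7 0.18, Isg15 0.23, Ifih1 0.72, Ddx58 0.42, Ifnar1 0.51, Tyk2 0.81, Irf2bp1 0.21, Mavs 0.51, Tbk1 0.96, Trex1 0.11, Tap1 0.48 and B2m 0.32. Of these only Tbk1 lay above the shifted median. The log2 fold change of Sirt6 itself ran from -1.40 to -0.36 over all alternatives, and from -1.40 to -1.29 with single libraries left out. Its adjusted p reached 0.567 over all alternatives, and at most 0.0069 with single libraries left out (edgeR). Without S1 and S2, Irf1 was -0.24, Irf3 0.0071 and Tbk1 0.093. With single libraries left out, Irf1 ranged from -0.22 to 0.43, Irf3 from -0.21 to 0.080, Ifih1 from -0.22 to 0.20, Tbk1 from -0.12 to 0.034 and Dhx58 from -0.091 to 1.14. The cause was not tested. Among members that kept their sign, Isg15 ranged from -1.81 to -0.36 (nearest 0 without S2), Stat2 from -0.38 to -0.086 (without S2), Ddx58 from -0.65 to -0.21 (without S4) and Irf7 from -0.90 to -0.42 (without S4). Counts were lowest for Ifit3 (0 to 55 reads per library), Dhx58 (0 to 29) and Isg15 (1 to 191), and depth and spread between libraries were not separated.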
